A study of Mus musculus with 6 samples.

Results

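The circadian clock genes described here are Per1, Per2, Per3, Cry1, Cry2, Dbp, Nr1d1, Nr1d2, Clock and Bhlhe40, 10 of the 16583 genes that could be tested by name. They were chosen as genes of the clock loop that works through E-boxes, the promoter sequence that USF1 and USF2 also bind. The rule uses no measured value, but the choice was made with earlier results of these data known. Each was read by 1 transcript cluster that the platform annotation assigns to that gene alone. The cells were Neuro2a, a mouse neuroblastoma line, grown with fetal bovine serum. In the control group they had received an empty vector (3 arrays), and in the knockdown group EmGFP-miR vectors that express microRNA-type RNA interference against USF1 or USF2 (3 arrays), with Lipofectamine named for the knockdown vectors. RNA was read on Affymetrix Mouse Gene 1.0 ST arrays. The labels name neither the time after transfection nor any step that would set the cells to 1 clock phase. The titles call each array a biological replicate, but no label says whether the replicates of a group were separate cultures. The p-values therefore cover no more than the spread among these samples, and how much of that spread is technical is not known.

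In the clock loop of mammalian cells, CLOCK and its partner ARNTL are basic helix-loop-helix proteins that bind E-boxes and switch on the Per and Cry genes, whose proteins return to the nucleus and block them. The same E-boxes drive Nr1d1 and Nr1d2, which encode REV-ERB receptors that repress Arntl, and Dbp, an activator at D-boxes. BHLHE40, also called DEC1, is an E-box repressor that competes for these sites. USF1 and USF2 recognise the same core sequence, and the comparison of knockdown with empty vector asks which genes depend on them.

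The promoter sequences are shown because the rule behind these genes is a shared DNA element. RefSeq windows (GRCm38.p6, 250 bases before to 50 after a gene's start) were found for 8 of the 10 genes, not for Per2 and Bhlhe40. The canonical E-box CACGTG, which reads the same on both strands, lay in a window of 2 of the 8, Per1 and Cry1. It lay in 7.15% of all 32851 windows and, counted by gene, in a window of 8.09% of 27025 genes. The 250 bases before the start most upstream are given 5′ to 3′ on the strand of the gene, with the matches in capitals. In Per1 (chr11:69098699-69098948, plus strand) the match begins 166 bases before the start, and in Cry1 (chr10:85185055-85185304, minus strand) 60 bases before it, where the non-canonical AACGTG also lies at 79 bases.
Per1: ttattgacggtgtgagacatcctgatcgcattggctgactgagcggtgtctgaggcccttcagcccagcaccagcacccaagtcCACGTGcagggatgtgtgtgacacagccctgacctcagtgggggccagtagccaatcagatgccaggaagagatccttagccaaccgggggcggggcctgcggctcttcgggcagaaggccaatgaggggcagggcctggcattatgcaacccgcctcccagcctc
Cry1: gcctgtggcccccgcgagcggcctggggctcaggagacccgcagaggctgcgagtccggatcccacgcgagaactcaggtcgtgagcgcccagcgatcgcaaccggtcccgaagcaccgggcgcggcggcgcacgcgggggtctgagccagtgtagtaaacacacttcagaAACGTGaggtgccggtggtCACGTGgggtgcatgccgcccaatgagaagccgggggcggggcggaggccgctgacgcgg
The non-canonical form, searched as CACGTT and its reverse complement AACGTG, lay in windows of Cry1, Cry2 and Nr1d1, 3 of the 8, and in 4.68% of all windows (5.44% of genes). For Cry2 (chr2:92434203-92434262, minus strand) and Nr1d1 (chr11:98775378-98775432, minus strand) the stretch around the match is shown, which begins 166 and 28 bases before the start.
Cry2: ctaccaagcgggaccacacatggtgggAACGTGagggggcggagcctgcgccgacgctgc
Nr1d1: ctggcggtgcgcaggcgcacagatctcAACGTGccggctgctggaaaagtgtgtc
The D-box, searched as TTATGTAA, TTACATAA and TTACGTAA, lay in the window of 1 of the 8 genes, Per3, and in 1.06% of all windows (1.23% of genes). Per3 holds it at 205 and at 158 bases before the start (chr4:151044789-151044897, minus strand).
Per3: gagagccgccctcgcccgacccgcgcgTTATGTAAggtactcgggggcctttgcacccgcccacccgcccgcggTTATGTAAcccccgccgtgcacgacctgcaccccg
The sequence TGACGTCA, the cAMP response element, lay in windows of 0 of the 8 and in 1.79% of all windows (2.03% of genes). For Clock and Dbp, shown because their knockdown and empty vector arrays did not overlap, none of the searched letters lies in a window, so the 250 bases are in lower case throughout (Clock at chr5:76304793-76305042, minus strand, Dbp at chr7:45704997-45705246, plus strand).
Clock: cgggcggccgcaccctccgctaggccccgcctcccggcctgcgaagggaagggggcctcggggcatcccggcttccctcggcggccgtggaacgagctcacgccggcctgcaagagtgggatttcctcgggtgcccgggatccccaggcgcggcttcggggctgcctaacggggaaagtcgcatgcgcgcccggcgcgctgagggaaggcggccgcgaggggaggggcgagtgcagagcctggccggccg
Dbp: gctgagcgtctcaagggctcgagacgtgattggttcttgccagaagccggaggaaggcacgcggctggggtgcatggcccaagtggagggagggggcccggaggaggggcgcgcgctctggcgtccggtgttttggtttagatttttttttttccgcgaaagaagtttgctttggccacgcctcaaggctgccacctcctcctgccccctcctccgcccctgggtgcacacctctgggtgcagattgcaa
A match is a description of letters in a short window. E-boxes further from the start, in introns or at distant enhancers, were not searched.

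As read by these arrays, the knockdown was partial at the RNA level, and no other measure of the target RNA was at hand. In RNA from a whole culture, less RNA in every cell and less in some cells only cannot be told apart, and the share of cells that took up a vector was not measured here. Relative log2 signals, which are centred so that the median of a gene over the 6 arrays is 0, were 0.18, 0.32 and 0.43 for Usf1 on empty vector arrays 1, 2 and 3 and -0.28, -0.18 and -0.26 on knockdown arrays 1, 2 and 3. Usf1 was at 0.682-fold of the control (-0.55 ± 0.07, SE) and Usf2 at 0.770-fold (-0.38 ± 0.06, SE), with an exact two-sided permutation p of 0.1 for each, the smallest that 3 against 3 arrays can give. Neither passed in limma over all genes (adjusted p = 0.320 and 0.348). Across all clusters the standard deviation was 0.159 on knockdown array 2 and 0.0531 to 0.0780 on the other 5 arrays. Clusters were placed in a brighter class (uncentred log2 values of 8 to 16) or a dimmer class (4 to 8) from the rounding step of their numbers, which is not a measured level. In the brighter class lay 44.1% of all genes, Usf2 among them, while Usf1 lay in the dimmer class. Of the markers of neuroblastoma and neuronal identity, 14 of 19 measured lay there, Phox2a and Hand2 among them, while Th and Dbh lay in the dimmer class. Of these 19, 3 were at an unadjusted limma p under 0.05, each of them lower, against 2.65% of all genes. They were Dbh (-0.25), Elavl4 (-0.13) and Chgb (-0.15), with limma adjusted p of 0.759, 0.996 and 0.996. The groups did not overlap and lay lower for these 3 and for Gap43 (-0.080), against 5.95% of all genes. They lay higher without overlap for Nefm (0.10) and Chga (0.052), against 4.33% of all genes. The part of the neuronal markers in the values of the clock genes was not tested. Of glial, fibroblast, macrophage and endothelial or epithelial markers, 1 of 10, 2 of 9, 0 of 7 and 2 of 12 lay in the brighter class.

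Among the 10 clock genes 6 had a change below 0, as did 50.4% of all genes, and 4 a change above 0. The lowest was Bhlhe40 at -0.24 and the highest Cry2 at 0.064 on the log2 scale, with a median of -0.040, against a median of -6.65e-04 over all genes tested. None of the 10 passed an adjusted p of 0.05 in limma (adjusted p of 0.996 to 0.999), where 0.00603% of all genes passed, which is 1 gene. At an unadjusted p under 0.05 there was 1 clock gene, Clock, lower after knockdown, against 4.25% of all genes in either direction and 2.65% lower. In the upward direction there were 0 clock genes, against 1.6% of all genes. The knockdown and empty vector arrays did not overlap for 4 of the 10, against 10.3% of all genes. They lay lower for Clock, Dbp and Per3 (3 of 10, against 5.95% of all genes) and higher for Cry2 (1 of 10, against 4.33%). The median of the absolute changes was 0.055 for the 10 genes and 0.040 for all genes.

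**Figure D1:**
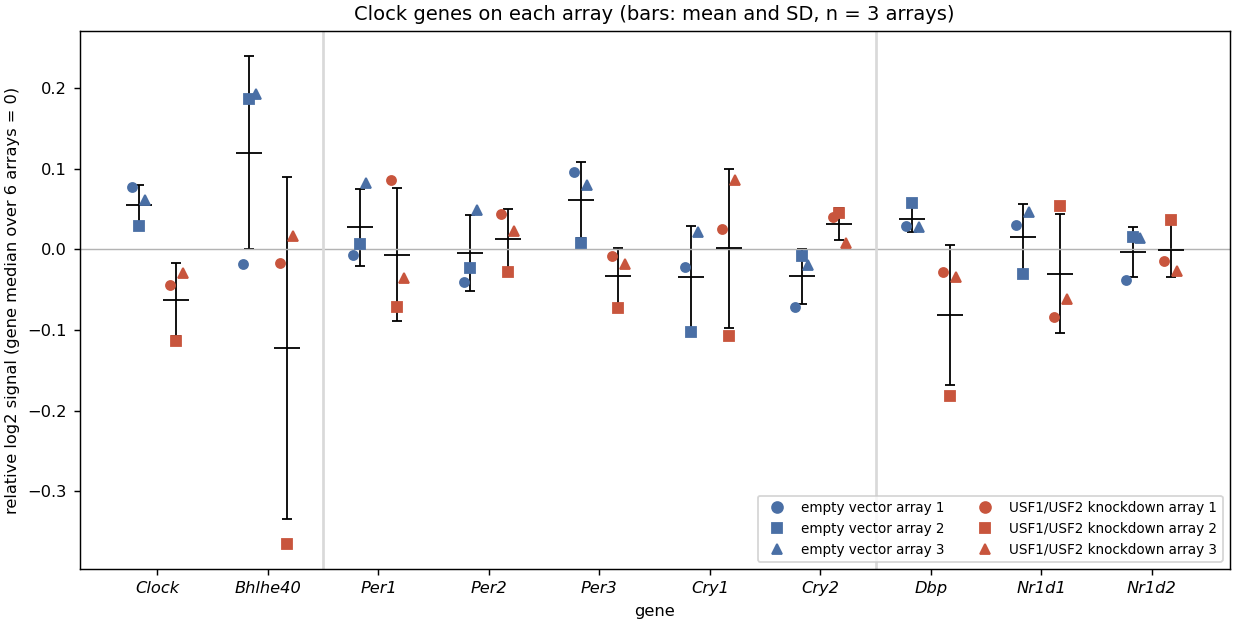
Relative log2 signal of each clock gene (y axis, the median of a gene over the 6 arrays is 0) on the 3 empty vector arrays (blue) and the 3 knockdown arrays (red). The marker shape gives the array number, and bars give the mean and SD of 3 arrays. The colours separate for Clock, Per3, Cry2 and Dbp, and knockdown array 2 is the lowest point for Bhlhe40, at -0.37.

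Clock encodes the activator that binds E-boxes together with ARNTL. Its relative log2 signals were 0.077, 0.029 and 0.061 on empty vector arrays 1, 2 and 3 and -0.044, -0.113 and -0.029 on knockdown arrays 1, 2 and 3. Every knockdown array lay below every empty vector array. The empty vector mean was 0.056 ± 0.024 and the knockdown mean -0.062 ± 0.045 (SD, n = 3 each). The Clock change was -0.12 ± 0.04 (SE), or 0.922-fold (95% interval 0.859 to 0.988), with an unadjusted limma p of 0.0276 and an adjusted p of 0.996. It ranked 384 of 16583 genes by p. Leaving out 1 array at a time, the change lay between -0.13 and -0.092, and the unadjusted p was under 0.05 in 2 of 6 fits. It was not under 0.05 without empty vector array 1 or 3 (0.0718 and 0.0736) or without knockdown array 1 or 2 (0.0555 and 0.0558). The fold of Usf1, 0.682 (95% interval 0.612 to 0.761), lies outside the interval of Clock. Whether Clock follows Usf1 was not tested.

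Bhlhe40 encodes the E-box repressor, and it had the largest change and the widest spread of the 10 genes. The relative log2 signals were -0.018, 0.186 and 0.193 on empty vector arrays 1, 2 and 3 and -0.017, -0.366 and 0.017 on knockdown arrays 1, 2 and 3. The groups overlapped, since empty vector array 1 lay below knockdown arrays 1 and 3. The means were 0.120 ± 0.120 (SD, n = 3) and -0.122 ± 0.212 (SD, n = 3). The change was -0.24 ± 0.11 (SE), or 0.846-fold (95% interval 0.711 to 1.01), with an unadjusted limma p of 0.0557 and an adjusted p of 0.996. Among all genes 0.344% had a change this low or lower, and its pooled SD of 0.172 was at percentile 97.0 of all genes. Without knockdown array 2, the lowest of the 6 for this gene, the change was -0.12 (unadjusted p = 0.102). Without empty vector array 1 it was -0.31 (unadjusted p = 0.0395), and without knockdown array 1 or 3 it was -0.29 and -0.31 (0.0470 and 0.0223). Without empty vector array 2 or 3 it was -0.21 each time (0.152 and 0.156), so the unadjusted p was under 0.05 in 3 of 6 such fits.

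The 3 Per genes encode the PERIOD proteins, the inhibitory arm of the loop, and they did not share a direction. Per1, whose window holds CACGTG, had signals of -0.0067, 0.0067 and 0.082 on the empty vector arrays and 0.086, -0.071 and -0.035 on the knockdown arrays. The highest and the lowest Per1 value were both from knockdown arrays, so the groups overlapped over the whole control range. Its change was -0.034 ± 0.055 (SE, 95% interval 0.894 to 1.07-fold, unadjusted limma p of 0.554, adjusted p = 0.996). Per1 is also induced by serum, cAMP and glucocorticoid, which act through other elements. Per2 had signals of -0.040, -0.023 and 0.049 with empty vector and 0.044, -0.028 and 0.023 with knockdown, and the groups overlapped here too. Its change was 0.018 ± 0.046 (SE, 95% interval 0.941 to 1.09-fold, unadjusted limma p of 0.700, adjusted p = 0.996). Per3, whose window holds the D-box at 2 places, had signals of 0.096, 0.0081 and 0.080 with empty vector and -0.0081, -0.072 and -0.018 with knockdown. Every knockdown array was below every empty vector array, with empty vector array 2 and knockdown array 1 as near neighbours on either side of 0. The Per3 change was -0.094 ± 0.045 (SE), or 0.937-fold (95% interval 0.872 to 1.01), with an unadjusted limma p of 0.0716 and an adjusted p of 0.996, and without 1 array it lay between -0.12 and -0.074.

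The cryptochromes, CRY1 and CRY2, bind PER proteins and are the main repressors of CLOCK and ARNTL. Cry1 holds both E-box forms in its window. Its signals were -0.022, -0.103 and 0.022 with empty vector and 0.026, -0.108 and 0.086 with knockdown. Array 2 was the lowest of its group on both sides, and the groups overlapped. The change was 0.036 ± 0.062 (SE, 95% interval 0.928 to 1.13-fold, unadjusted limma p of 0.580, adjusted p = 0.996), and its sign turned without knockdown array 3 (-0.0066). Cry2 had signals of -0.072, -0.0083 and -0.020 with empty vector and 0.041, 0.045 and 0.0083 with knockdown. All 3 knockdown arrays lay above all 3 empty vector arrays, and Cry2 was the only one of the 10 genes to separate in this direction. The change was small, at 0.064 ± 0.041 (SE), or 1.05-fold (95% interval 0.978 to 1.12), with an unadjusted limma p of 0.159 and an adjusted p of 0.996. Its replicates were tight, with a pooled SD of 0.0278 at percentile 7.13 of all genes.

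**Figure D2:**
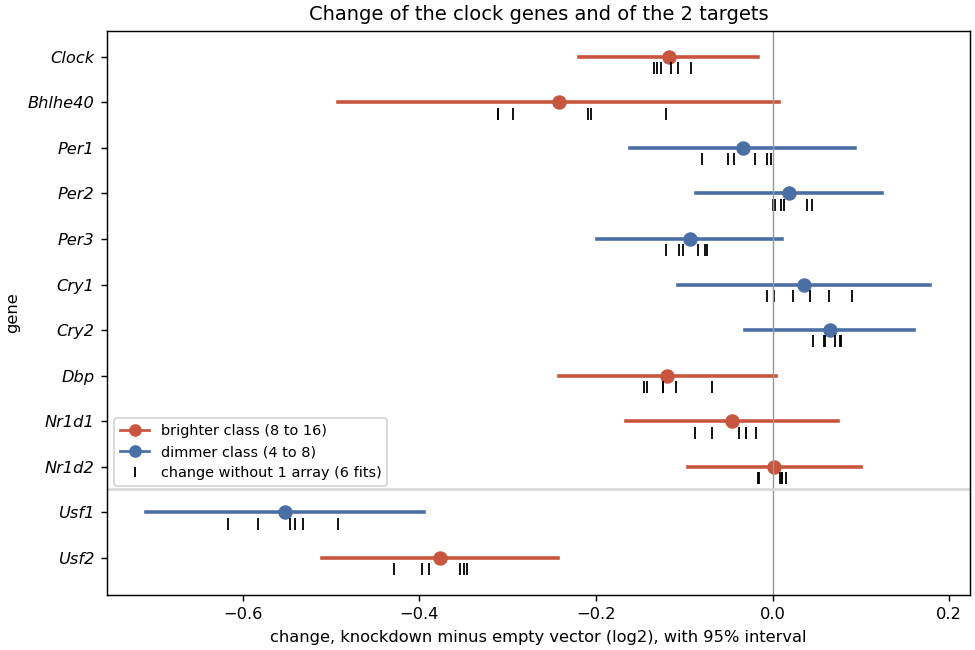
Change of each clock gene and of Usf1 and Usf2 (x axis, knockdown minus empty vector, log2; n = 3 arrays per group). Points are limma estimates, lines their 95% intervals, and short black ticks below each line the change in the 6 fits that leave out 1 array. The interval of Clock ends at -0.017 and those of the other 9 clock genes reach past 0, while those of Usf1 and Usf2 end at -0.39 and -0.24.

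The output genes of the loop were Dbp, Nr1d1 and Nr1d2. Dbp encodes the PAR-type leucine zipper activator at D-boxes and is a classic target of CLOCK and ARNTL. Its signals were 0.029, 0.057 and 0.028 with empty vector and -0.028, -0.182 and -0.034 with knockdown. The highest knockdown value was under the lowest empty vector value, and knockdown array 2 lay far below the other two. The means were 0.038 ± 0.017 (SD, n = 3) and -0.081 ± 0.087 (SD, n = 3). The Dbp change was -0.12 ± 0.05 (SE), or 0.921-fold (95% interval of the change -0.24 to 0.0036), with an unadjusted limma p of 0.0555 and an adjusted p of 0.996. Without knockdown array 2 it was -0.069 (unadjusted p = 0.130), and without knockdown array 3 it was -0.14 (0.0481).

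The REV-ERB genes, repressors of Arntl and Clock through ROR elements, had the smallest changes among the brighter of the 10 genes. Nr1d1 had signals of 0.031, -0.031 and 0.046 with empty vector and -0.084, 0.054 and -0.062 with knockdown. Knockdown arrays 1 and 3 were the lowest of the 6 and knockdown array 2 the highest. Its change was -0.046 ± 0.052 (SE, 95% interval 0.892 to 1.05-fold, unadjusted limma p of 0.403, adjusted p = 0.996), and it was -0.088 without knockdown array 2 and -0.019 without knockdown array 1. Nr1d2 had signals of -0.038, 0.015 and 0.014 with empty vector and -0.014, 0.037 and -0.026 with knockdown, which overlapped throughout. Its change of 0.0021 ± 0.043 (SE, 95% interval 0.935 to 1.07-fold, unadjusted limma p of 0.961, adjusted p = 0.999) was the smallest of the 10, and its sign turned under 4 of the 14 alternatives.

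**Figure D3:**
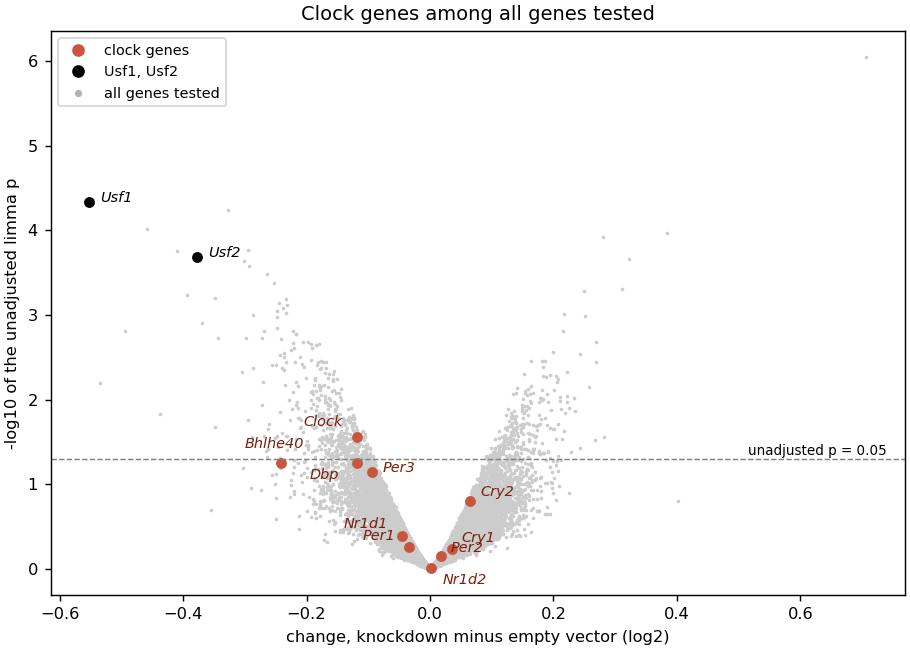
Change (x axis, log2) against -log10 of the unadjusted limma p (y axis) for all 16583 genes (grey), the 10 clock genes (red) and Usf1 and Usf2 (black). Of the clock genes only Clock lies above the dashed line at an unadjusted p of 0.05, and Bhlhe40, Dbp and Per3 lie just under it, with p of 0.0557, 0.0555 and 0.0716.

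The 10 genes fell into both brightness classes. Clock, Bhlhe40, Dbp, Nr1d1 and Nr1d2 lay in the brighter class, as did 44.1% of all genes, and the 3 Per and both Cry genes in the dimmer class. On knockdown array 2 the median difference from the mean of the empty vector arrays was -0.037 over all genes of the brighter class and 0.083 over all other genes. Set against their own class, Bhlhe40 stood at percentile 2.40, 0.150 and 6.57 on knockdown arrays 1, 2 and 3, Clock at 5.72, 12.4 and 10.2, and Dbp at 12.9, 6.83 and 13.3. The 3 percentiles of a gene share the same empty vector mean, so they are not independent of each other. For Bhlhe40 that mean was 0.120, and knockdown arrays 1 and 3 lay above empty vector array 1. Per3 stood at 19.4, 12.2 and 28.7. Cry2 stood at 86.8, 48.5 and 81.2, so on knockdown array 2 it was near the middle of its class. Nr1d1 was at 5.85 and 11.9 on knockdown arrays 1 and 3 and at 82.0 on knockdown array 2. In the brighter class 8.61% of genes had each knockdown array under each empty vector array, against 2 of the 5 clock genes there, Clock and Dbp. At an unadjusted p under 0.05 and lower were 3.52% of that class and 1 of the 5, Clock. In the remaining genes the groups did not overlap and lay lower for 3.85%, against 1 of 5 clock genes, Per3, and higher for 3.43%, against 1 of 5, Cry2.

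**Figure D4:**
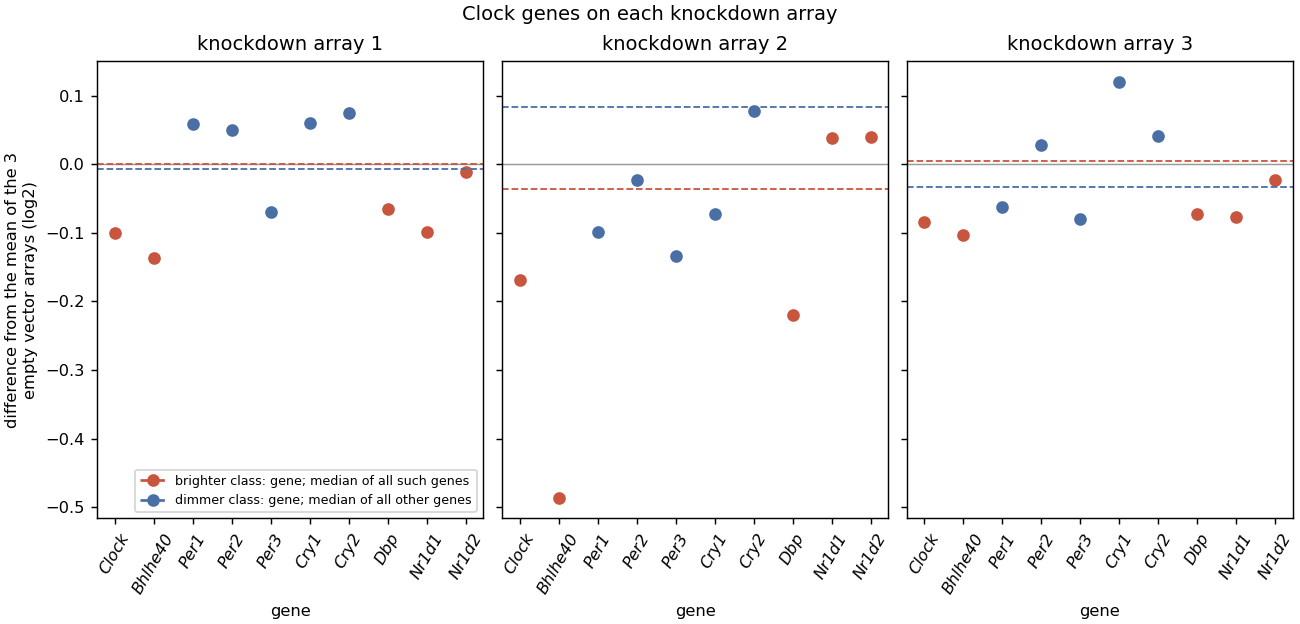
Difference of each clock gene from the mean of the 3 empty vector arrays (y axis, log2) on each of the 3 knockdown arrays (panels). Red points are genes of the brighter class and blue points genes of the dimmer class, and dashed lines are the medians of all brighter genes (red) and all other genes (blue). Clock, Bhlhe40, Dbp and Per3 are below 0 in each panel, Cry2 is above 0 in each, and on knockdown array 2 the dashed lines part, at -0.037 and 0.083.

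In lists of other clock genes no member outside the 10 reached an unadjusted p of 0.05 in the reported fit, where 4.25% of all genes did. Of the core activators and their partners 5 of 7 listed were measured, with 0 higher and 1 lower, Clock itself, at an unadjusted p under 0.05 and a median of 0.0021. Arntl, the partner of CLOCK, named after its values were seen, had signals of -0.056, -0.058 and 0.021 with empty vector and 0.070, -0.021 and 0.183 with knockdown. The groups overlapped, and its change was 0.11 ± 0.06 (SE, unadjusted limma p of 0.108, adjusted p = 0.996), opposite in sign to that of Clock. Of the other output and loop factors 15 of 15 were measured, with 0 at an unadjusted p under 0.05 in either direction and a median of -0.011. The 2 with the smallest p were Tef, a relative of Dbp that binds D-boxes (-0.087 ± 0.049, SE, unadjusted limma p of 0.117), and Cipc, an inhibitor of CLOCK (0.059 ± 0.050, unadjusted limma p of 0.278), each with an adjusted p of 0.996. Within the D-box family, 4 of 4 measured, 0 were at an unadjusted p under 0.05, with a median of -0.053. This list adds no further gene, since it holds Dbp, 1 of the 10, and Tef, Hlf and Nfil3 of the output list. Of the kinases, ubiquitin ligases and other partners of clock proteins 28 of 33 were measured, again with 0, and a median of 1.92e-04. Those with the smallest p were Rbx1, a subunit of cullin ligases (-0.091 ± 0.042, SE, unadjusted limma p of 0.0633), and Prkaa2, a catalytic subunit of the energy sensor AMPK (0.073 ± 0.050, unadjusted limma p of 0.182), each with an adjusted p of 0.996. The Rbx1 value averages more than 1 cluster, and 1 of these tested alone gave -0.070 (unadjusted limma p of 0.158). Without knockdown array 2 the output and loop factors had 2 genes at an unadjusted p under 0.05, among them Tef (-0.12, p of 0.0210), against 7.53% of all genes in that fit. Without knockdown array 3 the core list had 2, against 7.41%. With all 6 arrays kept, quantile normalization also gave the core list 2, against 5.38%. Testing each cluster alone gave 1 output factor and 1 kinase or partner, against 4.11%. In the brighter class alone Rbx1 had an unadjusted limma p of 0.0306, where 7.69% of genes were under 0.05. Array quality weights gave 3 in the core, 4 in the output, 2 in the kinase and 3 in the D-box list, against 26.3%. In the reported fit 0 genes of all 4 lists passed an adjusted p of 0.05 in limma, against 0.00603% of all genes.

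Signals that induce Per1 and Per2 were followed through lists of immediate early, cAMP and glucocorticoid response genes. These lists also hold genes such as Creb1 and Nr3c1, so not every listed gene is a readout of induction. Of the immediate early and cAMP response genes, 21 of 21 measured, 2 were at an unadjusted p under 0.05, 1 in each direction, with a median of -0.014, against 1.6% of all genes higher and 2.65% lower. These were the stress-induced factor Atf3 (0.15 ± 0.06, SE, unadjusted limma p of 0.0420) and the early response gene Ier3 (-0.14 ± 0.05, p of 0.0320), each with an adjusted p of 0.996, and for both the groups overlapped. Without 1 array the unadjusted p stayed under 0.05 in 3 of 6 fits for Atf3 (up to 0.153) and in 2 of 6 for Ier3 (up to 0.103). With the replicate block it was 0.0579 for Atf3 and 0.0333 for Ier3, and with quantile normalization 0.0263 and 0.0408. With array quality weights the Atf3 change was 0.22 (unadjusted limma p of 2.74e-04, adjusted p = 0.0193), in a fit where 1111 of all genes passed. The Ier3 change in that fit was -0.043 (0.262). Of the glucocorticoid response genes, 10 of 10 measured, 0 were at an unadjusted p under 0.05, with a median of 0.047. Markers of other cell types had medians of 0.063 (glia), 0.025 (fibroblasts), 0.054 (macrophages and blood cells) and 0.026 (endothelium and epithelium). In the brighter class lay 5 of their 38 measured genes, against 44.1% of all genes. Taken array by array as differences from the control mean, in the same order of lists, knockdown array 1 had 0.0099, 0.028, 0.056 and -0.022. Knockdown array 2 had 0.16, 0.20, 0.10 and 0.11, and knockdown array 3 had 0.012, -0.11, -0.022 and -0.028. Over all genes outside the brighter class the median was 0.083 on knockdown array 2 and -0.034 on knockdown array 3. At an unadjusted p under 0.05 there was 1 of these markers, Acta2 of contractile cells (-0.22, limma adjusted p = 0.996). The part of these markers in the values of the clock genes was not tested.

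The genes whose pattern over the 6 arrays was most like that of Clock, the clock gene with the smallest p, were found by the root mean square difference of relative log2 signals over 16582 other genes. They were Ncoa7 (0.0124), Ranbp17 (0.0186), Itsn2 (0.0189), Cercam (0.0200) and Chtop (0.0201), against a median of 0.0915. Their changes, which this choice fixes near that of Clock, ran from -0.12 for Ranbp17 to -0.093 for Cercam. None of the other 9 clock genes was among these 5.

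Among the 8 clock genes with a RefSeq window, which leaves out Bhlhe40, the gene with the lowest change, and Per2, those with the canonical E-box were not those with the lowest changes. Per1 and Cry1, which hold CACGTG, had changes of -0.034 and 0.036, both within overlapping groups, while Clock, Dbp and Per3, the 3 genes that separated downward, held none in a window. E-boxes outside the windows were not searched, and whether a change depends on an E-box was not tested. Of the 13071 tested genes with a RefSeq window 1385 (10.6%) held CACGTG, with a median change of -0.0033, 4.62% lower and 2.31% higher at an unadjusted p under 0.05. For the 11686 genes without it the median was -0.0012, with 2.44% lower and 1.57% higher. Of the genes with CACGTG 55.1% lay in the brighter class and of the others 44.6%, and the part of brightness in these shares was not tested.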

How the data were processed

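The values come from a table that the authors deposited, with 22891 transcript clusters and 6 arrays, and are taken here to be log2. Each cluster is centred on its own median over the arrays, so no level is kept. No source used here names the background correction, the normalization or the build. The log2 scale itself was inferred from the single-precision rounding step of the values (9.54e-07 or 4.77e-07, tolerance 0.05 of a step), which also set the brightness class. Groups came from the titles. Clusters with 1 gene symbol (18087) were averaged per gene, which gave 16583 genes. Changes came from limma 3.58.1 (lmFit, eBayes; R 4.3.3), without a block, with Benjamini-Hochberg adjustment over all genes. The fit was tested on 10 sets of simulated data. At an adjusted p of 0.05 it recovered 0% of changes of 0.1, 12.8% of 0.25, 81.2% of 0.5 and 97.8% of 1 on the log2 scale. The largest clock gene change was -0.24, so passing 0 of the 10 does not show that these genes stayed unchanged. The number of arrays limits the precision, with a median SE of 0.0561. Motifs were counted and figures drawn with Python 3.11.15, pandas 2.3.3 and matplotlib 3.10.9. Alternatives were a replicate block, leaving out each array, quantile normalization, centring of arrays, robust variances, array weights, the brighter class alone and other handling of clusters. A trend in the variance was not fitted because centred values hold no level.

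The 10 genes, the lists and the rule for named genes were chosen with earlier results of these data known. Named are the 10 genes and both targets. From each of 4 clock lists the rule takes genes at an unadjusted p under 0.05, or the 2 with the smallest p. From each of the 2 lists of immediate early and glucocorticoid response genes it takes up to 3 at an unadjusted p under 0.05. It adds the 5 genes most like the clock gene of smallest p. Arntl and the cell markers named were chosen after their values were seen.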

Additional observations from a re-analysis of the deposited data

How the results depend on the processing

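Over the 14 alternatives 0 of the 10 clock genes passed an adjusted p of 0.05 in limma each time. The number at an unadjusted p under 0.05, 1 in the reported fit, against 4.25% of all genes, was 0 to 3 when 1 array was left out. It was 0 without empty vector array 3 or knockdown array 2 (against 2.23% and 7.53% of all genes) and 3 without knockdown array 3 (Dbp, Clock and Bhlhe40, against 7.41%). It was 2 with quantile normalization (Clock and Bhlhe40, against 5.38%) and 3 of the 5 genes in the brighter class alone (Dbp, Clock and Bhlhe40, against 7.69%), where the median change of those 5 was -0.118. It was 6 with array quality weights (5 lower, 1 higher), where knockdown array 1 had a weight of 33 and knockdown array 2 of 0.136, so the knockdown mean was in effect that of 1 array. In that fit 4356 of all genes (26.3%) were at an unadjusted p under 0.05 and 1111 passed an adjusted p of 0.05. The median change of the clock genes stayed below 0 throughout and lay between -0.0565 and -0.0184 without 1 array. Signs turned for Per1 with array quality weights (0.047), for Cry1 without knockdown array 3 (-0.0066; 0.09 at most without 1 array), and for Nr1d2 without empty vector array 1 (-0.0155), without knockdown array 2 (-0.0168; 0.0147 at most without 1 array), with quantile normalization (-0.0023) and with array quality weights (-0.0173). The changes of Clock, Bhlhe40, Dbp, Per3 and Nr1d1 stayed below 0 and those of Per2 and Cry2 above 0 under every alternative that could be fitted for them. Same-numbered arrays had deviations from their group means that correlated at 0.003, 0.082 and 0.036 over 16583 genes. For arrays of different number the correlations ran from -0.094 to 0.053, so that of 0.082 was the highest of all. All of these correlations were small, and the numbers were not taken as pairs. With the replicate block the count of clock genes at an unadjusted p under 0.05 was 1 and their median -0.0398, and the block changed no call among them. It moved the count over all genes from 705 to 636, and the single gene past an adjusted p of 0.05 was lost. The cause of these movements was not tested. The number of arrays limits all of these values, since a gene of median SE needed a difference of 0.13 on the log2 scale to reach an unadjusted p of 0.05.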
